A study of Homo sapiens with 4 samples.

Results

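The regions described here are stretches of DNA between genes that were called as accessible in human pancreatic progenitors treated with the BET inhibitor I-BET151 and not in cells given the solvent DMSO. They were chosen by called peaks alone. Peaks of the 4 deposited lists on chromosomes 1 to 22, X and Y were merged wherever they overlapped by at least 1 bp, and a merged region was kept when it held a peak of both I-BET151 lists and of no DMSO list, when its midpoint lay outside every protein-coding gene body of GENCODE version 44, and when that midpoint lay 3 to 100 kb from the nearest protein-coding gene start. Of 164301 merged regions, 5862 met the rule. Such a pattern of calls was seen in 17% of all merged regions, and of the 36859 merged regions that lay between genes at this distance the share was 15.9%. Presence with I-BET151 and absence with DMSO was therefore the selection itself and is given below as a description.

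BET proteins are readers of acetylated lysine on histones, and through them acetylated enhancers and promoters recruit the machinery of transcription elongation. I-BET151 occupies their acetyl-lysine pocket. Open chromatin between genes is commonly found at enhancers, which bind tissue transcription factors, and at sites of CTCF, the zinc-finger protein that marks boundaries and anchors of chromatin loops. In the developing pancreas, progenitors are defined by factors such as PDX1, NKX6-1, SOX9 and GATA6, whose genes are known for long-range enhancers.

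Chromatin accessibility was measured by ATAC-seq, in which a transposase inserts sequencing adapters into open DNA. The cells were pancreatic progenitors made from 1 human embryonic stem cell line, MEL1, whose INS gene carries a GFP reporter, and all cultures were kept in the progenitor expansion medium EF6 (DMEM with B27, EGF at 50 ng/ml, bFGF at 10 ng/ml and the TGF-β receptor inhibitor 616452 at 10 μM). Cells received DMSO or 1 μM I-BET151 for 7 days, and 50000 cells went into each library. Each condition had 2 libraries, for which no separate cultures were stated, and all came from the single line, so any p-value covers the spread between these libraries.

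The 4 lists were unequal. They held 82568 and 38295 peaks for DMSO replicates 1 and 2, and 84995 and 111324 for I-BET151 replicates 1 and 2. The genome-wide background that the peak caller used came to 2.87 and 3.16 reads for DMSO but 0.923 and 1.52 reads for I-BET151. Background stands in for depth, which the lists do not give, so the 2 DMSO libraries were the deeper ones, and the weakest callable summit held 10 and 11 reads in them against 5 and 6 reads with I-BET151. Relative to background these calling limits were 3.49 and 3.48 times in DMSO and 5.42 and 3.96 times with I-BET151. Summits in both replicate 2 lists lay at higher coordinates than in both replicate 1 lists, by a median of 72 bp for DMSO replicate 2 and 69 bp for I-BET151 replicate 2, measured against DMSO replicate 1 over 25627 regions called in all 4 lists, whereas I-BET151 replicate 1 was offset by 0 bp. Of 8 progenitor markers, 6 and 5 had a peak within 1 kb of the gene start in the DMSO lists. All 8 had one in both I-BET151 lists, and PDX1 and GATA4 had none with DMSO. Over all protein-coding genes, 6.81% had such a peak in both I-BET151 lists only and 0.389% in both DMSO lists only. POU5F1 and NANOG (pluripotency), INS, GCG and NEUROG3 (endocrine cells), AFP (liver) and PRRX1 (mesenchyme) had none in any list. CHGA (endocrine cells) had one in 3 lists, at 3.24 in DMSO replicate 1 and 5.15 and 6.66 with I-BET151, and ALB (liver) and DPPA4 (pluripotency) had one in I-BET151 replicate 2 alone, at 3.18 and 3.72. LIN28A and TWIST1 had one in all 4 and COL1A1, a collagen gene of mesenchyme, had one in 3 lists, at a fold enrichment of 3.22 in DMSO replicate 2 and 4.55 and 9.97 with I-BET151. The part of other cells in the regions was not tested.

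Sequences of single sites are shown first, read from the reference genome. Each runs over hg38 from 50 bp before to 50 bp after the summit of the I-BET151 peak with the higher fold enrichment, printed on the plus strand, and capitals mark exact matches to any of 14 short motifs. The first group comprises the 8 strongest gained regions, named by their nearest protein-coding gene and ranked by the lower of their 2 fold enrichments.
EGFR region, chr7:54933366-54933466, plus strand: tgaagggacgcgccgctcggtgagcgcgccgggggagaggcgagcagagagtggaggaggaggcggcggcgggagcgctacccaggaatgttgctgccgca
SPIN2A region, chrX:57156596-57156696, plus strand: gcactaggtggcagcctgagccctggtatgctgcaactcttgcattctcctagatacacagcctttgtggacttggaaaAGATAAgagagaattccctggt
OTUD4 region, chr4:145234307-145234407, plus strand: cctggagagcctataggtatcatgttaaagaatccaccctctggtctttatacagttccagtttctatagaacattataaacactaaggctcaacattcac
PLS3 region, chrX:115503307-115503407, plus strand: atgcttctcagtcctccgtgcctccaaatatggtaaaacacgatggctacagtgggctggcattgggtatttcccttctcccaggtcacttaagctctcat
PPM1H region, chr12:62957345-62957445, plus strand: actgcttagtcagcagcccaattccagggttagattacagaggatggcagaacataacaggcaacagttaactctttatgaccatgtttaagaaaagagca
HSF2 region, chr6:122381758-122381858, plus strand: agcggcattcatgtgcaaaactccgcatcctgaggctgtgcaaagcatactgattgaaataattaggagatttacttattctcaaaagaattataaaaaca
B4GALT6 region, chr18:31722581-31722681, plus strand: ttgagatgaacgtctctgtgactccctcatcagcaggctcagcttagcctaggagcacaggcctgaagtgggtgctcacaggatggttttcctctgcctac
TMEM14A region, chr6:52652295-52652395, plus strand: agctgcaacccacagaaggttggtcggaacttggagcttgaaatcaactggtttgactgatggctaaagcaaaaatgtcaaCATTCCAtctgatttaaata
Only the SPIN2A and TMEM14A windows held a match, the GATA motif AGATAA and the TEAD motif CATTCCA. The SPIN2A window also held the CTCF consensus with 1 mismatch allowed. The EGFR region lay over an annotated processed pseudogene, the only such case among the 10 strongest regions.

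The second group shows the strongest region nearest to each of 4 genes for progenitor transcription factors and 5 genes of the Notch pathway (that of HEY1 is not shown), the signal between neighbouring cells that keeps pancreatic progenitors from differentiating.
NR5A2 region, chr1:199995505-199995605, plus strand: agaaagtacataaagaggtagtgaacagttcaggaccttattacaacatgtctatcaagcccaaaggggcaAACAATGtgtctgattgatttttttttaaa
PROX1 region, chr1:214068325-214068425, plus strand: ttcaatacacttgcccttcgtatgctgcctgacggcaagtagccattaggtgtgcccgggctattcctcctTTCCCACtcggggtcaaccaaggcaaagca
FOXA2 region, chr20:22684158-22684258, plus strand: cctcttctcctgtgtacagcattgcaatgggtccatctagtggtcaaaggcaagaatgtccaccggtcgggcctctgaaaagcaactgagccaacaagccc
NKX6-1 region, chr4:84420503-84420603, plus strand: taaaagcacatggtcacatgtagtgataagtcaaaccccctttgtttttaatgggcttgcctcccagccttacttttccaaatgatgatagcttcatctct
JAG1 region, chr20:10711473-10711573, plus strand: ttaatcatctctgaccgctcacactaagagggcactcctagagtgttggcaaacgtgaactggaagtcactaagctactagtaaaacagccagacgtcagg
NOTCH4 region, chr6:32245169-32245269, plus strand: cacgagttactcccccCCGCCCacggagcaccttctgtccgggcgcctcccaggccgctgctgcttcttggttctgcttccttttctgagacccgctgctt
HES1 region, chr3:194058252-194058352, plus strand: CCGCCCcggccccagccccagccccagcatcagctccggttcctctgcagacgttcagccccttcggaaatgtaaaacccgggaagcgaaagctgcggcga
NRARP region, chr9:137293962-137294062, plus strand: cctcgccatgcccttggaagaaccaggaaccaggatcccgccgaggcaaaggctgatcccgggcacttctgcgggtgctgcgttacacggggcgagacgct
MAML3 region, chr4:140186952-140187052, plus strand: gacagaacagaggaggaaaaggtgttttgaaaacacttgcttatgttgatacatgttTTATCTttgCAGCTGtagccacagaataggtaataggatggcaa
Here capitals mark the SOX motif CATTGTT (as AACAATG) near NR5A2, the RBPJ motif GTGGGAA (as TTCCCAC) near PROX1, the SP motif GGGCGG (as CCGCCC) near NOTCH4 and HES1, and a GATA motif (as TTATCT) beside the bHLH motif CAGCTG near MAML3. The FOXA2 window matched none of the 14 exactly but held the CTCF consensus with 1 mismatch.

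The third group was picked after the values were seen, from the strongest regions with an exact CTCF consensus inside the printed window.
FMO1 region, chr1:171226904-171227004, plus strand: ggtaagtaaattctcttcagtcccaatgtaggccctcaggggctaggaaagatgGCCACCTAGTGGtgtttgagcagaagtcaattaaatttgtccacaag
TAF9B region, chrX:78200040-78200140, plus strand: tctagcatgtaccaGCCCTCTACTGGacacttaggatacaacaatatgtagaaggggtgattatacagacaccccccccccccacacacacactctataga
HTR4 region, chr5:148731087-148731187, plus strand: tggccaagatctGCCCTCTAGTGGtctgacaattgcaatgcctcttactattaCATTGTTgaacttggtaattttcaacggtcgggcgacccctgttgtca
FAM204A region, chr10:118424025-118424125, plus strand: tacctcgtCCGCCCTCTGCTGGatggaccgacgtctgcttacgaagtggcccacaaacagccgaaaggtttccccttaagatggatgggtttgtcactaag
All 4 matches lay on the minus strand. The HTR4 window held a SOX motif as well, and in the FAM204A window the capitals run on from an overlapping SP motif.

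Height was read as the number of reads stacked at a summit, which could be solved from the deposited fold enrichment and p-value of every peak, divided by the genome-wide background of the library. The strongest region by the lower fold enrichment, chr7:54933055-54933714 at 85632 bp upstream of EGFR (the receptor of the EGF in the medium), had no peak in either DMSO list and 29 and 41 reads in I-BET151 replicates 1 and 2. Those reads stood at 31.4 and 27.0 times background, and the fold enrichments of 15.6 and 15.9 placed it above 99.2% and 98.5% of the peaks of the 2 lists. The OTUD4 region, chr4:145234011-145234644 at 53739 bp upstream of the deubiquitinase gene, held 32 and 52 reads, or 34.7 and 34.3 times background. Near PLS3, the gene for an actin-bundling protein, chrX:115503113-115503563 held 27 and 59 reads, so that its 2 libraries differed more, at 29.3 and 38.9 times background. The FANCL region (a gene of the Fanconi anaemia DNA repair pathway) differed most among the 10 strongest, with 45 and 46 reads, or 48.8 and 30.3 times background. The GIN1 region was the tallest of the 10 in its lower library, with 39 and 60 reads, 42.3 and 39.6 times background. None of the 10 had a DMSO peak, as the rule requires, and in each the 2 I-BET151 libraries lay far above the DMSO calling limits.

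Most gained regions were of middling height. Across the 5862 regions the summit held a median of 12 reads in I-BET151 replicate 1 (5th to 95th percentile 7 to 23) and 19 reads in replicate 2 (9 to 39), or 13.0 and 12.5 times background. Their median fold enrichment of 5.5 and 6.16 stood at the 49.4th and 51.1th percentile of the full lists, so they were typical peaks of the treated libraries rather than weak or strong ones. Regions of the same position called in all 4 lists, of which there were 4602, had medians of 20 and 44 reads and stood at the 74.5th and 82.6th percentile. The gained regions were narrower, with a median of 481 bp (interquartile range 391 to 606) against 721 bp. In both I-BET151 lists 2072 of the gained regions (35.3%) exceeded the list's median, 489 (8.34%) its 75th percentile and 71 (1.21%) its 90th. The heights in the 2 I-BET151 libraries went together across regions, with Pearson's r of 0.691 on the log2 scale and Spearman's rho of 0.668 over 5862 sites of the same 2 libraries, given as a description, beside an r of 0.787 for the regions called in all 4 lists.

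Absence of a DMSO peak sets only an upper bound on DMSO signal. A DMSO summit below 3.49 times background could escape calling, so the lower of the 2 I-BET151 heights over this limit bounds the difference from below, provided the local background equalled the genome-wide one. This bound had a median of 3.11-fold over the gained regions (log2 1.63, 5th to 95th percentile 0.77 to 2.68) and reached 13.6-fold. The comparison needs a reference, because heights over background were larger with I-BET151 in general: over the 25627 regions called in all 4 lists, the lower I-BET151 height exceeded the higher DMSO height by a median log2 of 1.51, or 2.85-fold. This shared shift is a median, so as many of the regions called in all 4 lists lie above it as below. Passing it therefore does not place a region outside their spread. Of the 5862 gained regions, 3241 (55.3%) exceeded the DMSO limit by more than this shared shift, close to the 56% over all 27885 gained regions. For the other 2621 regions (44.7%) the missing DMSO peak was within what the shared shift and the calling limit allow. The share past the shared shift was 34.1% in the replicate 2 pair alone and 70.3% in the replicate 1 pair alone, and 28.2% when the DMSO limit was taken from the weakest 10% of DMSO peaks. When the regions were divided into 4 equal groups by fold enrichment, it was 20.3% in the lowest group and 97.8% in the highest. Both the groups and this share rest on I-BET151 peak strength against a fixed limit. The rise was therefore largely built in and says nothing about DMSO signal. Background at the I-BET151 summits was a median 1.28 and 1.27 times the genome-wide level, and with the DMSO limit set at that local level the median bound was 2.69-fold.

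The number of gained regions moved with the lists. Between replicates of the same number, 9530 regions of this position were called with I-BET151 only and 12238 with DMSO only in the replicate 1 pair, but 17221 and 1893 in the replicate 2 pair, so the balance turned with the pair. Regions called in both DMSO lists and no I-BET151 list numbered 1281, against 5862 gained. With only the 38295 strongest peaks of each list, the gained regions fell to 1317 and the DMSO-only regions were 1105, and with a −log10 p of at least 10 the counts were 3669 and 63. Leaving out I-BET151 replicate 1 gave 13532 regions and leaving out I-BET151 replicate 2 gave 9114, since 1 treated list then sufficed. Peaks at this position, counted by summit, made up 23.7% (95% Wilson interval 23.4 to 24.0, counting error only) and 20.8% (20.4 to 21.2) of the 2 DMSO lists and 19.9% (19.6 to 20.2) and 20.9% (20.6 to 21.1) of the 2 I-BET151 lists. The means of 22.2% ± 2.0 and 20.4% ± 0.69 (SD, n = 2) differed by less than the spread between the DMSO replicates, with a two-sided exact permutation p of 0.667, where 0.333 is the smallest that 2 against 2 libraries can give. Between libraries of the same number the difference was -3.78 percentage points (replicates 1) and 0.0541 (replicates 2), and at a −log10 p of at least 10 it turned from -1.86 to 2.98 points. A larger share of intergenic peaks with I-BET151 was therefore not shown.

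Of the 14 motifs, the CTCF consensus set these summits most sharply apart from the DNA beside them. Within 100 bp of the summit, 360 of the 5862 gained regions (6.14%, 95% Wilson interval 5.56 to 6.79) held an exact match on either strand, against 0.119% in windows of the same length 1 kb away. The share was 5.54% in regions of the same position called in all 4 lists, 0.312% (4 regions) in those called in both DMSO lists only, 4.21% in gained regions inside genes, 2.76% in gained regions over 100 kb from any gene start and 1.86% over all merged regions. The same consensus read with its letters reversed was found in 0 of the gained regions. Put the other way, 1023 of all merged regions at this position held the consensus, and 35.2% of those were gained and 24.9% were called in all 4 lists, while 15.3% of the regions without it were gained. Over all merged regions at this position, 15.9% were gained and 12.5% were called in all 4 lists, so both shares were higher with the consensus. When I-BET151 replicate 1 was left out the share of gained regions with the consensus was 3.67%, and without replicate 2 it was 4.66%. With 1 mismatch allowed, 18.8% of the gained regions and 15.3% of those called in all 4 lists had a match, against 1.16% beside the summits.

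Matches to CTCF rose with peak strength. They were found in 2.86% of the group of gained regions with the lowest fold enrichment (42 of 1466 regions), then in 4.64%, 6.55% and 10.5% (154 of 1466) of the next 3 groups. No such rise was seen in the FOXA motif TGTTTAC, at 5.53%, 5.26%, 5.26% and 5.87%, or in the AP-1 motif TGANTCA, at 10.4%, 10.9%, 11.0% and 8.59%. Gained regions with the consensus held a median of 14 and 21 reads in I-BET151 replicates 1 and 2, against 11 and 18 reads in those without it. Of the 4 printed, the strongest by the lower fold enrichment, at FMO1 (chr1:171226793-171227168, 21490 bp upstream), held 24 and 30 reads. The FAM204A region (chr10:118423868-118424278) held more, at 26 and 50. In 252 of the 360 regions (70%) the height passed the DMSO limit by more than the shared shift, against 54.3% of the others. That limit is fixed, so this share largely restates the taller I-BET151 peaks and says nothing about DMSO signal. Regions with the consensus also lay nearer to a gene start, at a median of 26049 bp against 34818 bp. The most frequent of the 16 words that the consensus allows was CCACCAGGTGGC, in 48 of the 360 regions (13.3%), while among the regions called in all 4 lists CCACCAGGGGGC led, with 13.3% of the words against 7.22% in the gained regions. The consensus pointed toward the nearest gene start in 152 of the 360 regions (42.2%, 37.2 to 47.4), against 46.3% in the regions called in all 4 lists and 44.9% over all regions of this position.

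**Figure D1:**
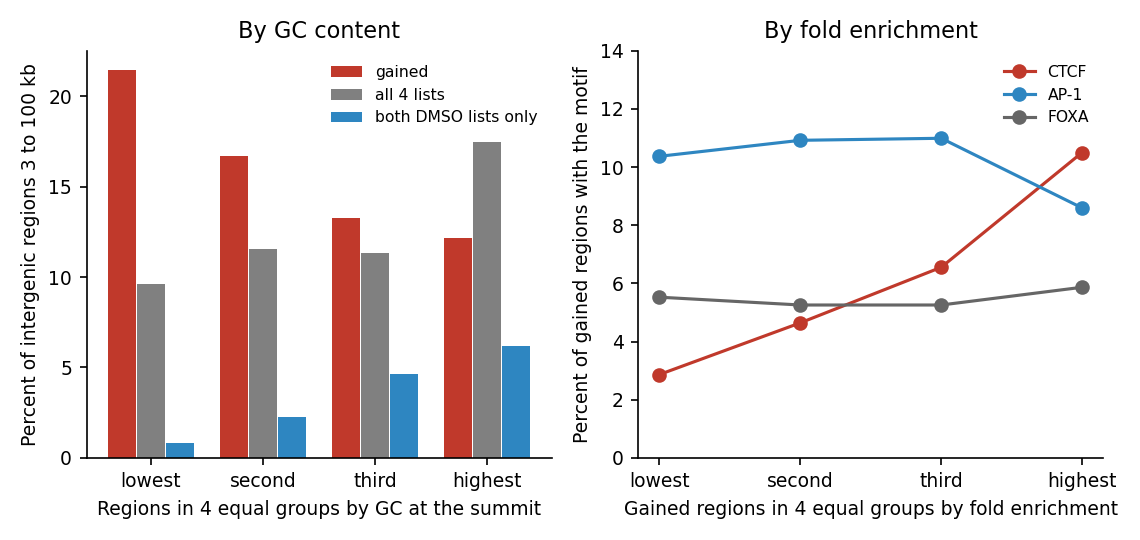
Left, percent of merged intergenic regions 3 to 100 kb from a gene start that were gained, called in all 4 lists or called in both DMSO lists only, in 4 equal groups by GC content within 100 bp of the summit; right, percent of gained regions with the CTCF, AP-1 or FOXA motif, in 4 equal groups by the lower of the 2 fold enrichments. The gained share falls from 21.4% to 12.2% with GC content, and the CTCF share rises from 2.86% to 10.5% with fold enrichment.

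The offset between the lists could be seen at single sites. In I-BET151 replicate 1 the centre of the CTCF match lay a median of 3.5 bp from the summit and within 30 bp in 66.3% of 436 gained regions with a match inside 300 bp, whereas in replicate 2 the median was -57.5 bp and the share 12.0% of 443. Summits of replicate 2 lay at the higher coordinate in 80.1% of the gained regions, by a median of 64 bp. The reason for the offset was not tested. Around the replicate 1 summits, 406 gained regions (6.93%) and 6.41% of the regions called in all 4 lists held the CTCF consensus within 100 bp.

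Motifs of pancreatic factors were present at moderate shares. Within 100 bp of the main summit, the motif AGATAA of GATA factors was found in 15.7% of gained regions, FOXA in 5.48%, SOX (CATTGTT) in 4.62%, NKX6-1 (TTAATTA) in 2.92%, HNF6 (ATTGATC) in 2.68%, HNF1 (GTTAATNAT) in 1.88%, PDX1 (CATNAATCA) in 1.64% and HNF4 (CAAAGTCCA) in 0.512%. All were searched on both strands, a window counted once per motif, and matches of different motifs could overlap. For HNF6 the word ATCGATC was accepted too. At least 1 of these 8 was found in 29.7% of the gained regions, in 28.4% of the regions of the same position called in all 4 lists and in 26.3% of all merged regions, so their combined share was near the background. Against regions of the same position called in all 4 lists, NKX6-1 stood at 2.92% and 2.22%, SOX at 4.62% and 3.87%, HNF6 at 2.68% and 2.24% and GATA at 15.7% and 14.4%, whereas HNF1 stood at 1.88% and 2.41%, PDX1 at 1.64% and 1.67% and FOXA at 5.48% and 5.52%. In windows 1 kb beside the gained summits NKX6-1 was more frequent than at them, at 3.38%. Some of these motifs were no rarer, or hardly rarer, with their letters reversed: FOXA stood at 5.48% against 5.54% reversed and HNF6 at 2.68% against 3.41%. NKX6-1 stood at 2.92% against 2.83% reversed, and in regions called in all 4 lists at 2.22% against 1.78%. By contrast, SOX stood at 4.62% against 2.17%, PDX1 at 1.64% against 0.392% and HNF1 at 1.88% against 0.546%.

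Several motifs were rarer at the gained regions than at those open in every library. AP-1, the sequence bound by FOS and JUN dimers, was found in 10.2% of gained and 15.2% of regions called in all 4 lists. The SP motif GGGCGG of GC-rich promoters was found in 7.83% and 15.1%, but with its letters reversed it showed a like drop, at 8.22% and 15.0%. HNF4, 1 of the 8 pancreatic motifs above, was found in 0.512% and 1.39%. Reversed, AP-1 stood at 5.07% and 5.11% and HNF4 at 0.188% and 0.196%. TEAD (CATTCCA) stood at 5.10% and 5.91% and the bHLH motif CAGCTG at 13.97% and 14.5%, while RBPJ (GTGGGAA), the DNA-binding partner of Notch, was not rarer, at 5.31% and 5.19%. Around the replicate 1 summits the AP-1 shares were 10.5% and 16.3%, the SP shares 8.38% and 16.7% and the HNF4 shares 0.495% and 1.63%. Over all merged regions AP-1 stood at 11.0%, SP at 10.4% and HNF4 at 0.990%. The 10.2% of gained regions with AP-1 was thus near the general share, while SP and HNF4 lay below theirs. In 2331 gained regions (39.8%) none of the 14 motifs was found. These shares are descriptions of the letters in the windows, and occupancy by any factor was not measured.

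Base composition differed too. The windows within 100 bp of the summit had a median GC content of 46.3% and a mean of 3.32 CpG in the gained regions, against 50.7% and 5.10 in those called in all 4 lists and 54.2% and 2.62 in those called in both DMSO lists only. When the merged intergenic regions were divided into 4 equal groups, in the group with the lowest GC content (20.9% to 43.3%), 21.4% were gained and 0.825% were DMSO-only. In the group with the highest (55.2% to 97.5%), 12.2% were gained and 6.17% were DMSO-only. GC content thus moved in opposite directions with the 2 one-sided sets, and its part in the calls, like that of read depth, was not tested.

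In position the gained regions resembled other intergenic peaks. The median distance to the nearest protein-coding start was 34174 bp, against 29982 bp for regions called in all 4 lists and 32373 bp for all merged regions of this position. Of the gained regions, 796 lay 3 to 10 kb from a start, 1856 lay 10 to 30 kb and 3210 lay 30 to 100 kb, and in these ranges 15.1%, 15.4% and 16.4% of the merged intergenic regions were gained. Upstream of the nearest gene lay 72.7% (4260 regions, 95% Wilson interval 71.5 to 73.8), against 73.3% over all merged regions of this position. A long non-coding RNA gene covered the midpoint of 24.1% of the gained regions, and 4.33% lay within 1 kb of the start of one, against 9.56% of those called in all 4 lists. An annotated processed pseudogene was overlapped by 38 regions (0.648%).

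The X chromosome stood out by its share. There 263 of 885 merged intergenic regions (29.7%) were gained, against 15.6% over the autosomes, where single chromosomes ranged from 8.85% (chromosome 19) to 17.98% (chromosome 4). Peaks on X made up 1.41% and 1.68% of the DMSO lists and 2.56% and 2.67% of the I-BET151 lists. With only 2 libraries per group such a separation carries little weight, and these peak shares are not given for the other chromosomes. The larger gained share on X held outside this position too, with 27.7% of all 3489 merged regions on X gained against 16.7% on the autosomes. The SPIN2A and PLS3 regions among the 10 strongest lie on X. Leaving X and Y out, 5596 gained regions remained.

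The gained regions were nearest to 3975 of 20033 protein-coding genes (19.8%), or 41.5% of the 9583 genes that had any merged intergenic region at this distance. Of these genes, 2692 had 1 gained region and 1283 had 2 or more, and 39 had at least 5. HTR1B, a serotonin receptor gene on chromosome 6, had the most, with 8 of its 16 regions gained. They lay from 5538 bp to 94445 bp from its start, and the strongest (chr6:77403417-77403885) held 14 and 39 reads. A second one, chr6:77457762-77458143, held 17 and 41 reads and the CTCF consensus. CXCR4, the chemokine receptor of endoderm and many migrating cells, had 6 of 15, the strongest being chr2:136065292-136066353 with 24 and 38 reads. BPNT2, a phosphatase gene, had 6 of 17 gained, and CAVIN2, which encodes a protein of caveolae, 6 of 16. A neighbouring gained region within 10 kb was found for 16.3% of all 5862.

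Genes for transcription factors of the progenitor state were often the nearest gene. Of 30 such genes, 22 had at least 1 gained region, a share of 73.3% beside the 19.8% of all protein-coding genes. They also had many regions to begin with: 235 merged regions of this position were nearest to them, of which 50 (21.3%) were gained beside 15.9% in general, 34 were called in all 4 lists and 10 in both DMSO lists only. The NR5A2 region (a nuclear receptor of exocrine pancreas), chr1:199995115-199995847 at 32133 bp upstream, held 23 and 36 reads. The region nearest to PROX1, a homeobox gene, lay 85220 bp downstream of its start with 22 and 30 reads. Fold enrichment was 11.2 and 12.0 near NR5A2 and 7.77 and 9.27 near PROX1 (75.9th and 80.1th percentile of the 2 lists). Weak regions were nearest to genes of the list too, such as 1 of GATA4 whose lower fold enrichment was 2.98.

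Both defining factors of the progenitor had gained regions. NKX6-1 had 4 of its 9 regions gained, the strongest (chr4:84420089-84420733, 78881 bp downstream of the start) with 33 and 44 reads, or 35.8 and 29.0 times background. FOXA2, the endodermal pioneer factor, had 3 of 24 gained, the strongest 98784 bp upstream with 26 and 34 reads. Outside the naming rule, because their promoters served as the marker check, PDX1, SOX9, GATA6 and GATA4 are added here. PDX1 had 3 of 10 gained and 0 called in all 4 lists, at 8.18 to 50.6 kb, and the tallest, chr13:27909343-27909924 at 10366 bp upstream, held 17 and 34 reads. SOX9, which maintains the progenitor pool, had 5 of 19 gained and 3 called in all 4 lists. Among its 5, chr17:72055165-72055843 at 65516 bp upstream held 22 and 21 reads, and chr17:72219446-72220081, near the upper distance limit, held only 10 and 10. GATA6 had 5 of 20 gained, all at least 66.5 kb away, with fold enrichments between 3.57 and 6.64, and GATA4 had 2 of 13. HNF4G had 0 of 5 and PTF1A 0 of 4.

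The Notch pathway list stood near the general share of genes. Of 36 genes, 8 had a gained region (22.2%), and 14 of their 99 merged regions (14.1%) were gained. JAG1, a ligand, had 1 of 5 gained, chr20:10711035-10711792 at 37415 bp upstream, with 28 and 41 reads. HEY1, a target repressor, had 5 of 24, the strongest with 17 and 21 reads, and the target repressor HES1 had 3 of 24, its strongest at 77810 bp upstream with 11 and 20. The receptor gene NOTCH4 had a region 21183 bp upstream with 10 and 19 reads, and NRARP, a feedback inhibitor, one with 7 and 23. For NRARP the 2 libraries differed clearly, at 7.58 and 15.2 times background.

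Genes of the pathways fed by the medium, EGF, FGF and TGF-β, had gained regions in 13 of 30 cases (43.3%), and 25 of 183 merged regions (13.7%) were gained. Besides EGFR, the EGF-family ligand gene TGFA had a region 11002 bp upstream with 22 and 25 reads and a FOXA motif within 100 bp of the summit. FGFR1, an FGF receptor, had 4 of 11 gained, the strongest with 12 and 20 reads, and FGF2, the gene of the FGF in the medium, had 1 with 12 and 20. ERBB4, an EGF-receptor relative, had a region with 12 and 18 reads that held the CTCF consensus.

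Among genes of BET proteins, MYC and the cell cycle, 11 of 30 had a gained region (36.7%), with 17 of 137 merged regions gained (12.4%). The cyclin gene CCND2 had the strongest, 45020 bp upstream with 20 and 26 reads, holding GATA, PDX1 and NKX6-1 motifs. MKI67, the proliferation marker, had a region with 20 and 45 reads, MYCN one with 15 and 24, MYC one with 16 and 17 and MYCL one with 12 and 16. Endocrine genes had gained regions in 8 of 24 cases (33.3%), with 14 of 71 merged regions gained (19.7%), among them SST (somatostatin), whose region at 9114 bp upstream held 17 and 24 reads, ST18 with 19 and 23, PCSK1 with 15 and 24 and ISL1 with 13 and 20. For acinar and duct genes the count was 11 of 26 (42.3%), and 17 of 68 merged regions were gained (25%), the highest share of the 7 lists. There SPINK1, a trypsin inhibitor of acinar cells, had a region only 3960 bp upstream with 19 and 39 reads and FOXA, TEAD and AP-1 motifs. EPCAM had one with 17 and 28 reads, SPP1 with 15 and 23, PNLIP with 11 and 13 and CFTR with 10 and 12. Genes of other lineages had 13 of 35 (37.1%), with 31 of 181 merged regions gained (17.1%), among them SNAI1 with 20 and 26 reads, MITF with 13 and 22, SOX17 with 13 and 16 and SNAI2 with 11 and 26. All 7 lists thus stood above the 19.8% of all genes, the Notch list least and that of other lineages included. Among only the genes with any merged intergenic region at this distance, the general share was 41.5%. On that base the Notch list stood below it at 38.1%, other lineages near it at 44.8% and progenitor factors highest at 81.5%. The endocrine list stood at 50%, the BET, MYC and cell cycle list at 55%, the medium pathways at 56.5% and acinar and duct genes at 61.1%. Shares by gene do not allow for how many regions a gene has. The gained share of the regions of the 7 lists ranged from 12.4% to 25% beside 15.9% in general. By region the Notch list (14.1%), the medium pathways (13.7%) and the BET, MYC and cell cycle list (12.4%) stood below the general share.

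Promoters of the nearest genes and shared regions nearby were then read in the same lists. Of the 3975 genes, 2020 (50.8%) had a peak within 1 kb of the start in all 4 lists, 321 (8.08%) in both I-BET151 lists only, 7 in both DMSO lists only and 1085 (27.3%) in none. Over all protein-coding genes these shares were 49.8%, 6.81%, 0.389% and 29.5%. To ask whether peaks called in every library changed in order, fold enrichments were ranked within each list and the ranks tested with limma. Over all 25627 regions, 3.41% ranked higher and 1.96% lower with I-BET151 at a Benjamini-Hochberg adjusted p under 0.05, and over the 8665 promoter regions 2.79% and 1.06% did. Of the 2066 promoter regions of genes nearest to a gained region, 39 ranked higher (1.89%) and 28 lower (1.36%). Of the 4164 shared regions nearest to a gained one, 128 ranked higher (3.07%) and 72 lower (1.73%). For the shared regions these shares stayed near those of all 25627. At the promoters fewer ranked higher than over all promoter regions (1.89% beside 2.79%) and slightly more ranked lower (1.36% beside 1.06%). Their median rank difference, I-BET151 minus DMSO, was -0.20, beside -0.069 over all promoter regions. The reason for this difference was not tested. The 1378 calls depended on the measure, with 35 left when ranks came from −log10 p, and on the libraries, with 337 left without DMSO replicate 1, 452 without DMSO replicate 2, 2227 without I-BET151 replicate 1 and 3533 without I-BET151 replicate 2.

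Of the 35 promoter regions of named genes among the merged regions called in all 4 lists, 1 was called (2.86%, beside 2.79% higher and 1.06% lower over all promoter regions). It was that of ISL1, a LIM-homeodomain gene of endocrine cells, with a rank difference of 1.89 ± 0.41 (SE, normal scores, I-BET151 minus DMSO, 2 libraries each, limma adjusted p = 0.0206). The EGFR promoter differed by -0.15 (adjusted p = 0.842), that of NKX6-1 by -0.17 (0.835), that of FOXA2 by -0.24 (0.791) and that of NR5A2 by -1.03 (0.112), all in the same limma fit. The 2 promoter regions of HES1 differed by -0.85 (0.180) and -0.40 (0.558). Of the genes nearest to the 10 strongest regions, none with a promoter in this fit passed the threshold, the lowest adjusted p being 0.0967 for GIN1.

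The distance limits cut through a continuum. Just inside 3 kb were the regions of DSG4, at 3004 bp with 9 and 15 reads, and of C2orf50, at 3022 bp with 26 and 45 reads. Just outside were those of BCL2, at 2993 bp with 21 and 20 reads, and of SHISA5, at 2989 bp with 14 and 16. At the far limit, MAGED1 (99986 bp, 8 and 17 reads) and MACIR (99929 bp, 14 and 22 reads) were just inside, and RAI14 (100034 bp, 12 and 36 reads) and PROK2 (100063 bp, 9 and 11 reads) just outside. In read numbers the regions inside and outside each limit overlapped.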

How the data were processed

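ATAC-seq peaks from 2 DMSO and 2 I-BET151 libraries were used, grouped by sample title. According to the methods and labels, reads were aligned to hg38 with Bowtie2 2.2.5 and peaks were called per library with MACS2 2.1.2 at a p of 1e-05. The deposited lists reach a q of 0.05, and the shortest peaks were 200 bp in both replicate 1 lists but 233 and 256 bp in the replicate 2 lists, and whether calling settings differed was not tested. The authors deposited, per peak, fold enrichment over local background (a ratio) and −log10 p and q values, with no read counts. Reads at each summit were solved from the fold enrichment and −log10 p under a Poisson model (MACS2's pseudocount of 1), within 0.001 in −log10 p for 100% of peaks. Lists were merged and annotated with GENCODE 44 in Python 3.11.15, and ranks of the 25627 shared regions were tested with limma 3.58.1 in R 4.3.3, after tests on simulated data. Reads without molecular identifiers are not independent molecules, so intervals cover counting error only. The regions, gene lists, markers, motifs and tests were chosen with earlier results of these data known. Genes were named by rule: nearest to the 10 regions with the highest lower fold enrichment, up to 5 per list, the 5 genes with most regions, and the 2 regions on either side of each distance limit. Some genes that the rule names are not reported here.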

Additional observations from a re-analysis of the deposited data

How the results depend on the processing

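The number of gained intergenic regions, 5862, stayed between 5585 and 8132 with a −log10 p of at least 5 (chosen after seeing the data), with 50% DMSO overlap required, with summits in place of midpoints, with long non-coding RNA genes added, or without either DMSO library. It was 3669 at a −log10 p of at least 10, 1317 with equal numbers of peaks, 3730 at 5 to 50 kb, and 6260 to 13532 over all libraries left out in turn. As a replicate block, the mean over same-numbered pairs was 13376 (1 list per condition). The difference in the share of peaks turned at a −log10 p of at least 10 (2.98 points) and in the replicate 2 pair (0.0541, against -3.78 in the replicate 1 pair, a replicate block mean of -1.86), and single libraries left out gave -3.29 to -0.44. The CTCF share of 6.14% was 8.78% at a −log10 p of at least 10, 8.81% with equal numbers of peaks, 3.65% and 7.49% within 50 and 250 bp, 18.8% with 1 mismatch, 6.93% around replicate 1 summits (chosen after seeing the data) and 3.67% to 6.26% without single libraries. The share past the shared shift, 55.3%, was 28.2% with the weakest 10% of DMSO peaks as the limit, 77.1% with the shift of the same position and 40.7% at the local background (chosen after seeing the data); by replicate block it was 70.3% and 34.1% in the 2 pairs. With long non-coding RNA genes 62.2% in place of 72.7% lay upstream. The 1378 rank calls became 35 by −log10 p, 337 to 3533 without single libraries, and 1637 with a replicate block. The deviations of same-numbered libraries from their group means had a correlation of -0.143, and with crossed numbers, chosen after seeing the data, 3552 were called. The causes of these changes were not tested. Each group had 2 libraries of unequal depth.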
